A study of Torulaspora microellipsoides with 8 samples.

Results

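The catalases, the mitochondrial superoxide dismutase, the peroxidases and the 2 regulators that handle peroxide were examined in the white and opaque cells of the budding yeast Torulaspora microellipsoides. The members were the transcribed regions whose name, taken from the best match among Saccharomyces cerevisiae proteins, is on a list of 10 genes. The names CTT1, CTA1, SOD2, PRX1, AHP1, CCP1, YAP1 and SKN7 were found, under 11 of the 4464 regions. SOD1 and TSA1, also on the list, were not analysed here. PRX1, AHP1 and CCP1 each name 2 regions, called region 1 and region 2 here in the order of their mean counts.

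White cells are the small budding form that makes shiny colonies, and opaque cells are a larger form of higher ploidy that arises from them. All cultures were of 1 strain and were grown without a stressor in yeast extract glucose medium at 23 °C from an OD600 of 0.05 to an OD600 of 1.0, so no culture was exposed to peroxide. There were 3 white and 3 opaque mRNA libraries, labelled as cultures 1 to 3 of each cell type, with 24948791 to 50126043 counts each. The labels give the same culture volume and shaking speed for both cell types, but the paper's methods give other values for both settings. The 2 genomic DNA samples of the series were not used here. The study's mapping table gives a lower mapped share for white library 3 than for the others, and the count of members called did not change without it. To compare the labels with the paper, 7 other genes that the study followed by RT-qPCR were looked up. RPL30, GAP1 and MEP2 were higher in opaque cells and GLK1, XBP1 and SSA3 were higher in white cells. Their libraries did not overlap, as for 77.8% of all tested regions. The paper reports these genes as differing in the same mRNA-seq data, so the lookup compares labels only and is no independent support. Its text also calls XRN1 higher in white cells, where its figure legend names XBP1. Here XRN1 did not pass (-0.05 log2 units, opaque minus white, edgeR adjusted p = 0.49). No markers of another cell type were searched.

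Cells make superoxide and hydrogen peroxide as by-products of respiration and of oxidases in the peroxisome. In S. cerevisiae, superoxide dismutases turn superoxide into hydrogen peroxide, and catalases break hydrogen peroxide down to water and oxygen without a reductant. Peroxiredoxins and cytochrome c peroxidase reduce it instead, with electrons from thioredoxin or glutathione and from cytochrome c. The transcription factors Yap1 and Skn7 act together on many of the genes for these enzymes. The roles given below are those known in S. cerevisiae.

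Most of the tested members were lower in opaque cells. A level is given in CPM, the counts of a region scaled to the size of its library with TMM factors, and a log2 fold change as opaque minus white, with a Benjamini-Hochberg adjusted p over all 4404 regions tested with edgeR. 10 of the 11 member regions passed the filter on low counts. Of these, 7 were lower in opaque cells at an adjusted p under 0.05, against 37.6% of all tested regions. Only SKN7 was higher, against 36.6% of all tested regions, and AHP1 region 1 and PRX1 region 2 did not pass. Over all tested regions 1656 were lower and 1611 higher, and scaling by total counts gave 2021 and 1317. In all, 74.2% of the tested regions passed in 1 direction or the other, so a passing member is in itself no distinction, and the size of the difference is given for each. CTT1, PRX1 region 1 and AHP1 region 2 were at least 4-fold lower in opaque cells, against 5.25% of all tested regions. The white and opaque libraries did not overlap for 8 of the 10 member regions, against 77.8% of all tested regions. The median log2 fold change was -1.12 over the 10 member regions and -0.02 over all tested regions. The values are shares of the mRNA of a culture, so fewer cells with a transcript and less of it in each cell cannot be told apart. Opaque cells are larger and of higher ploidy, and mRNA per cell was not measured. A lower share thus need not mean a smaller amount in each cell.

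**Figure D1:**
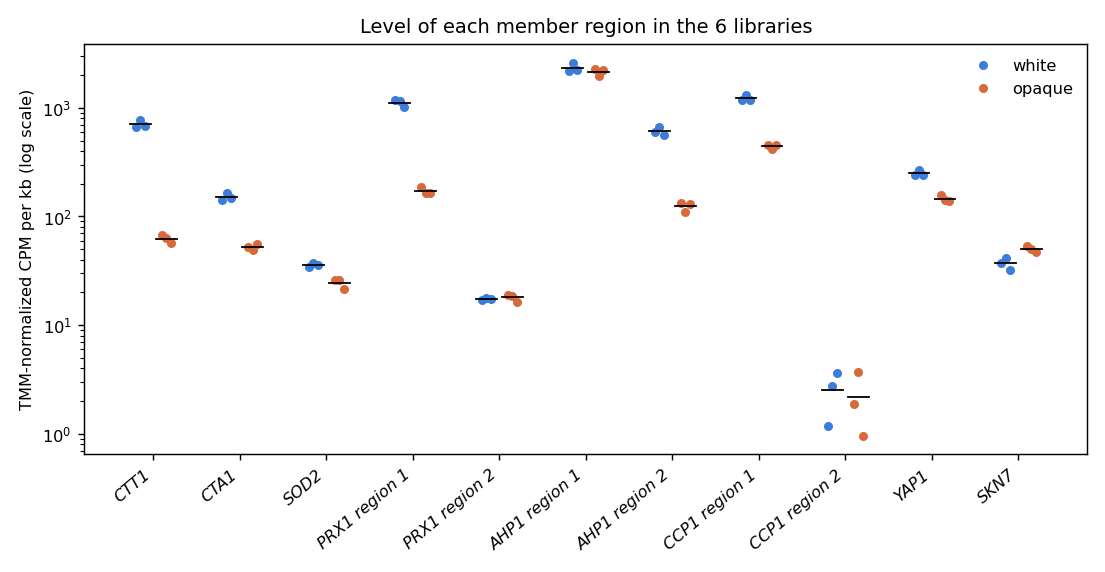
Level of each of the 11 member regions in each of the 3 white (blue) and 3 opaque (orange) libraries, as TMM-normalized CPM per kb of region on a log axis, with a black line at the mean. CTT1 fell from a mean of 708.9 in white to 62.4 in opaque cells, whereas the 6 points of AHP1 region 1 lie between 1966 and 2609.

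The catalases differed in size of change. CTT1, the cytosolic catalase T, lies on scaffold 6 of the CLIB830T assembly from 292881 to 294590 on the minus strand, is 1709 bp long in the count files and has 70.2% identity to the protein it is named for. It was at 1140, 1326 and 1169 CPM in white libraries 1, 2 and 3 and at 114.5, 108.8 and 96.4 CPM in opaque libraries 1, 2 and 3. The lowest white library was thus far above the highest opaque one, and the 3 cultures of each cell type lay close together. CTT1 was 11.4-fold higher in white cells, a difference of -3.51 log2 units (SE 0.0933, edgeR adjusted p = 1.1e-10). Of the 4404 tested regions it had the 99th lowest log2 fold change.

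CTA1, the peroxisomal catalase A, lies on scaffold 5 from 327070 to 328578 on the plus strand and matches at 80.5% identity, the highest of the members. It was at 213.5, 250.4 and 222.9 CPM in the white libraries and at 79.4, 73.9 and 83.4 CPM in the opaque ones, again without overlap. CTA1 was 2.90-fold higher in white cells, a difference of -1.54 log2 units (SE 0.0788, edgeR adjusted p = 1.2e-08).

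The balance of the catalases shifted as well. Within a library, the log2 ratio of CTT1 to CTA1 counts per kb was 2.22 ± 0.0126 in white and 0.25 ± 0.194 in opaque cells (SD over 3 libraries each). White libraries thus held several times more CTT1 than CTA1, whereas in opaque library 3 the log2 ratio was 0.03. The ratio does not depend on how libraries are scaled to each other, and it was lower in all 3 opaque libraries than in any white one (exact permutation test, two-sided, p = 0.1, the smallest that 3 against 3 libraries can give). The adjusted p over the 7 ratios computed was 0.1 for each of them. The pairs CTT1 to CTA1 and YAP1 to SKN7 were planned, and the other 5 of the 7 were chosen after the data were seen. For those 5, the separation of the cell types restates fold changes already seen and is no further support.

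SOD2 encodes the manganese superoxide dismutase of the mitochondrial matrix and is the only dismutase gene analysed here. It lies on scaffold 4 from 1146303 to 1146944 on the minus strand and matches at 68.2% identity. It was at 21.8, 24.0 and 23.1 CPM in the white libraries and at 16.6, 16.8 and 13.7 CPM in the opaque ones. The difference was small, but the libraries did not overlap, and SOD2 differed by -0.54 log2 units (SE 0.102, edgeR adjusted p = 5.4e-04), with a 95% interval from -0.77 to -0.32. Its counts were 322 to 932 per library, fewer than those of any other tested member region except PRX1 region 2. By RT-qPCR relative to histone H3, the paper found SOD2 not different between the cell types. With the same method it found CTT1 higher in white cells, with or without peroxide. Its mRNA-seq comparison counted differences of at least 4-fold. Relative to SOD2, CTT1 fell much further: the log2 ratio of CTT1 to SOD2 counts per kb was 4.30 ± 0.0642 in white and 1.35 ± 0.062 in opaque cells (SD over 3 libraries each; exact permutation test, two-sided, p = 0.1).

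Among the peroxidases, the 2 regions named PRX1 differed in their change, and so did those named AHP1. PRX1 encodes the mitochondrial peroxiredoxin with a single active cysteine. PRX1 region 1, on scaffold 7 from 467373 to 468044 on the plus strand, matches at 71.4% identity and was at 787.9, 770.7 and 680.6 CPM in the white libraries and at 125.2, 110.8 and 111.3 CPM in the opaque ones. It was 6.44-fold higher in white cells, a difference of -2.69 log2 units (SE 0.0842, edgeR adjusted p = 2.4e-10), the second largest difference of the members.

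PRX1 region 2, on scaffold 4 from 495149 to 495784, matches at only 44.65% identity. It was at 10.9, 11.2 and 10.9 CPM in the white libraries and at 12.1, 11.9 and 10.4 CPM in the opaque ones, which overlap. The difference of 0.06 log2 units did not pass (edgeR adjusted p = 0.62), with a 95% interval from -0.17 to 0.29, and it changed sign under other scalings. The log2 ratio of region 1 to region 2 counts per kb was 5.998 ± 0.109 in white and 3.26 ± 0.103 in opaque cells (SD over 3 libraries each; exact permutation test, two-sided, p = 0.1).

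AHP1 encodes a cytosolic thioredoxin-dependent peroxidase that prefers alkyl hydroperoxides. AHP1 region 1, on scaffold 8 from 149962 to 150489 on the minus strand, matches at 76.1% identity and had the highest level per kb of the members in both cell types. It was at 1140, 1375 and 1176 CPM in the white libraries and at 1192, 1036 and 1186 CPM in the opaque ones, which overlap. The difference of -0.11 log2 units did not pass (edgeR adjusted p = 0.27), with a 95% interval from -0.31 to 0.08. This depends on the scaling, since upper-quartile scaling gave -0.23 and scaling to total counts gave -0.27, both of which passed (edgeR adjusted p = 0.031 and 0.01).

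AHP1 region 2, on scaffold 9 from 122082 to 122492 on the minus strand, matches at 43.8% identity. Unlike PRX1 region 2 it was well expressed, at 245.1, 275.4 and 230.9 CPM in the white libraries and at 54.6, 45.1 and 53.0 CPM in the opaque ones. It was 4.92-fold higher in white cells, a difference of -2.30 log2 units (SE 0.0935, edgeR adjusted p = 1.8e-09). For PRX1 the better match was the one that fell, and for AHP1 it was the poorer match. The log2 ratio of AHP1 region 1 to region 2 counts per kb was 1.93 ± 0.0687 in white and 4.12 ± 0.0365 in opaque cells (SD over 3 libraries each; exact permutation test, two-sided, p = 0.1). With the counts of both regions summed, AHP1 differed by -0.36 log2 units (edgeR adjusted p = 0.003).

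CCP1 encodes cytochrome c peroxidase, which works between the mitochondrial membranes. CCP1 region 1, on scaffold 7 from 684447 to 685334 on the minus strand, matches at 73.1% identity and was at 1058, 1164 and 1057 CPM in the white libraries and at 403.2, 367.5 and 406.7 CPM in the opaque ones. It was 2.78-fold higher in white cells without overlap, a difference of -1.48 log2 units (SE 0.0723, edgeR adjusted p = 8.5e-09). CCP1 region 2 is 89 bp long and had 3, 9 and 13 counts in the white libraries and 8, 8 and 2 in the opaque ones, and it did not pass the filter, so no difference could be detected at this depth.

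The log2 ratio of CTT1 to CCP1 region 1 counts per kb was -0.80 ± 0.0406 in white and -2.83 ± 0.171 in opaque cells, and that of PRX1 region 1 to AHP1 region 1 was -1.07 ± 0.162 and -3.65 ± 0.102 (SD over 3 libraries each; exact permutation test, two-sided, p = 0.1 for both). All 3 opaque libraries lay below all 3 white ones in both ratios. Both pairs were chosen after the fold changes were seen, so this restates those differences and is no further support.

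The 2 regulators moved in opposite directions, both by less than 2-fold. YAP1 encodes the basic leucine zipper factor that collects in the nucleus when peroxide oxidizes it. It lies on scaffold 2 from 790415 to 792145 on the plus strand and matches at 35.8% identity, the lowest of the members. YAP1 was at 414.4, 463.0 and 415.5 CPM in the white libraries and at 275.6, 243.0 and 239.7 CPM in the opaque ones. It differed by -0.77 log2 units (SE 0.0768, edgeR adjusted p = 3.5e-06), without overlap of libraries.

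SKN7, a response regulator with a heat-shock-factor-like DNA-binding domain, lies on scaffold 4 from 74953 to 76242 on the minus strand and matches at 63.55% identity. It was at 48.5, 53.5 and 41.4 CPM in the white libraries and at 68.9, 65.3 and 60.7 CPM in the opaque ones. It was 1.36-fold higher in opaque cells, a difference of 0.44 log2 units (SE 0.0945, edgeR adjusted p = 0.0013), and it was still called higher when scaled by the upper quartile (0.33) or by total counts (0.29). The log2 ratio of YAP1 to SKN7 counts per kb was 2.75 ± 0.129 in white and 1.54 ± 0.0556 in opaque cells (SD over 3 libraries each; exact permutation test, two-sided, p = 0.1).

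**Figure D2:**
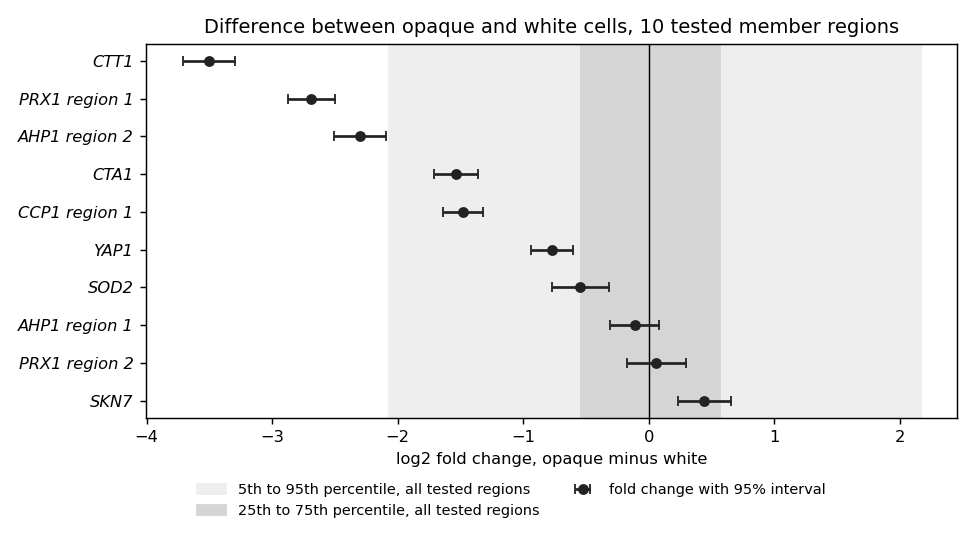
Log2 fold change, opaque minus white, of the 10 tested member regions, with 95% intervals from edgeR as bars. The light and dark bands hold the 5th to 95th (-2.07 to 2.17) and the 25th to 75th (-0.54 to 0.57) percentiles of all 4404 tested regions; CTT1, PRX1 region 1 and AHP1 region 2 lie to the left of the light band.

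**Figure D3:**
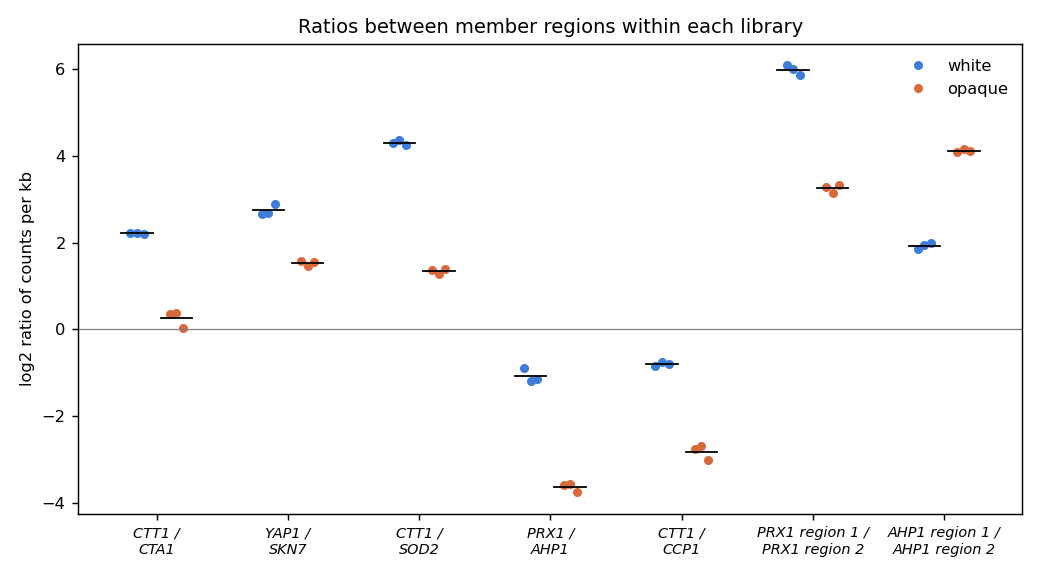
Log2 ratio of counts per kb for 7 pairs of member regions within each of the 3 white (blue) and 3 opaque (orange) libraries, with a black line at the mean; a name without a region number stands for its region 1. The CTT1 to CTA1 ratio fell from 2.22 in white to 0.25 in opaque cells, and no pair shows overlap between the cell types. Only the pairs CTT1 to CTA1 and YAP1 to SKN7 were planned. The other pairs were chosen after the data were seen, so their lack of overlap restates differences already known.

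Per kb of region, the order of the members' levels in white cells was AHP1, CCP1, PRX1, CTT1, YAP1, CTA1, SKN7 and SOD2, counting region 1 of each name. From AHP1 at 2335 ± 240 CPM per kb down to CTA1 at 152 ± 12.7 CPM per kb no neighbours overlapped, whereas SKN7 at 37.1 ± 4.72 and SOD2 at 35.8 ± 1.75 CPM per kb did (SD over 3 libraries each). In opaque cells YAP1 stood above CTT1, and the order was otherwise the same. There CTA1 at 52.3 ± 3.17 and SKN7 at 50.4 ± 3.18 CPM per kb overlapped, and CTT1 was at 62.4 ± 5.42 CPM per kb (SD over 3 libraries each). CTT1 was thus higher per kb than 94.5% of all tested regions in white cells and 53.5% in opaque cells. AHP1 region 1 was at the 97.8th percentile in white and the 97.4th in opaque cells.

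Replicate cultures varied little. The coefficient of variation of the 10 tested member regions ran from 1.66% for PRX1 region 2 to 12.7% for SKN7 in white libraries, and from 5.53% for CCP1 region 1 to 11.03% for SOD2 in opaque libraries. Each tested member region was covered by reads along its whole length in every library, and none overlapped another region.

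The nearest region on either side of CTT1 was higher in opaque cells. ELO2, a fatty acid elongase gene 462 bp from it, rose by 0.82 log2 units, whereas UBP12, the next region on that side, fell by 0.52 (edgeR adjusted p = 3.4e-05 and 2.3e-05). On the other side, a 128 bp region named MOT1 rose by 1.39 log2 units, from 0.386 to 1.01 CPM, and the proteasome subunit gene RPN7 beyond it rose by 0.49 (edgeR adjusted p = 0.0018 and 1.6e-04). Of the 14 regions nearest to the 7 members that were lower in opaque cells, 6 were also lower (37.6% of all tested regions), 4 were higher (36.6% of all) and 4 did not pass. None of the 14 was at least 4-fold lower, against 5.25% of all tested regions.

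The regions most like CTT1 over the 6 libraries were sought by the Euclidean distance between log2 CPM values centred on each region's mean. Of the 4404 tested regions, the nearest were a 74 bp region named RIM4 (distance 0.121), a region named GIT1 at 29.7% identity (0.244) and RGI1, a gene of energy metabolism on the same scaffold (0.262). Their log2 fold changes were -3.56, -3.50 and -3.43. The RIM4 region did not have 10 counts in every library, so its values lie near the floor. As this measure follows the difference between the cell types, it is a description of the same contrast.

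Other genes of the pathway were taken from 6 lists, and each name is represented by its region with the most counts. For the further peroxidases and repair enzymes, 2 of 9 listed names were found and both were lower in opaque cells, against 37.6% of all tested regions. HYR1, the glutathione-peroxidase-like sensor that oxidizes Yap1, was at 375 ± 51.9 CPM in white and 131 ± 4.88 CPM in opaque cells (SD over 3 libraries each), a difference of -1.52 log2 units (edgeR adjusted p = 6.1e-08). HYR1 names 2 regions, and with the counts of both summed the difference was -1.21 (edgeR adjusted p = 6.2e-07). MXR1, which repairs oxidized methionine, differed by -0.33 log2 units (edgeR adjusted p = 5.8e-04).

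Of 13 listed thioredoxin and glutathione names 3 were found, and 2 of them were higher and 1 lower in opaque cells, against 36.6% and 37.6% of all tested regions. GSH1, which makes the first and limiting step of glutathione synthesis, rose from 222 ± 13.5 CPM in white to 482 ± 22.0 CPM in opaque cells (SD over 3 libraries each), a difference of 1.12 log2 units (edgeR adjusted p = 6.2e-08). GLR1, glutathione reductase, rose by 0.44 and GSH2, glutathione synthetase, fell by 0.24 (edgeR adjusted p = 1.1e-04 and 0.0041).

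NADPH is the reductant behind glutathione and thioredoxin. On the list for its supply, 7 of the 9 names tested were lower and 2 were higher in opaque cells. Among all tested regions 37.6% were lower and 36.6% higher. The median of the 9 names was -0.87 log2 units, against -0.02 over all. The list also holds TAL1 and TKL1, whose enzymes do not make NADPH. ALD6, the cytosolic aldehyde dehydrogenase, differed by -5.39 log2 units, and IDP2, cytosolic isocitrate dehydrogenase, and GND2, 6-phosphogluconate dehydrogenase, by -1.15 and -1.14 (edgeR adjusted p = 2.9e-11, 3.2e-08 and 1.8e-08). TAL1, transaldolase, which recycles sugars of the pentose phosphate pathway without making NADPH itself, fell by 0.92 (edgeR adjusted p = 2.3e-07). IDP1, the mitochondrial isocitrate dehydrogenase, rose by 0.59 (edgeR adjusted p = 6.8e-05). TKL1, transketolase, passed at 0.19 (edgeR adjusted p = 0.02) but not with upper-quartile scaling, total counts or a block on the culture number, nor without opaque library 1 or 2 or white library 1 (adjusted p = 0.062 to 0.66 over these).

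Genes on the list for metal loading of superoxide dismutases, which also holds general metal transporters, were split, with 2 of 7 tested names lower in opaque cells (37.6% of all tested regions), 4 higher (36.6% of all) and 1 not past the test. The split was 3 lower and 3 higher after upper-quartile scaling or summing the counts of a name, and 3 lower and 1 higher by total counts. The manganese transporter genes SMF1 and SMF2 fell by 1.17 and 0.51 (edgeR adjusted p = 1.3e-08 and 3.6e-05). MTM1, a mitochondrial carrier needed for active Sod2, rose by 0.54 (edgeR adjusted p = 2.0e-04). The copper chaperone gene ATX1 and PMR1, a Golgi calcium and manganese pump, passed at 0.40 and 0.26 (edgeR adjusted p = 0.004 and 0.0017), but not with total counts (adjusted p = 0.082 and 0.086). CCS1, the copper chaperone of Sod1, was at 115 ± 4.96 CPM in white and 131 ± 9.50 CPM in opaque cells (SD over 3 libraries each). The difference of 0.18 log2 units passed (edgeR adjusted p = 0.038), but did not when any library other than opaque library 2 was left out, nor with either other scaling or either other filter (adjusted p = 0.052 to 0.77).

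In the list of peroxisomal genes, 6 of 8 tested names were lower (37.6% of all tested regions), 1 was higher (36.6% of all) and 1 did not pass, with a median of -0.56. POX1, the acyl-CoA oxidase that forms hydrogen peroxide, differed by -0.93 log2 units, and POT1, the thiolase of the same pathway, by -3.10 (edgeR adjusted p = 1.2e-06 and 1.0e-09). PEX13 and PEX14, which dock imported proteins, fell by 0.54 and 0.58, whereas PEX11, which acts in peroxisome division, rose by 0.47 (edgeR adjusted p = 2.0e-04, 3.6e-05 and 5.5e-04).

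Of 9 tested stress regulators, 5 were lower (37.6% of all tested regions), 1 was higher (36.6% of all) and 3 did not pass, with a median of -0.31. The 6 that passed in either direction stand beside 74.2% of all tested regions. XBP1, a repressor induced by stress, names 2 regions, and the one with more counts was at 89.5 ± 9.01 CPM in white and 5.30 ± 0.649 CPM in opaque cells (SD over 3 libraries each), a difference of -4.08 log2 units (edgeR adjusted p = 1.2e-10). With the counts of both XBP1 regions summed it was -2.27 (edgeR adjusted p = 2.8e-08). RIM15, a kinase of quiescence entry, differed by -1.47 log2 units, HOG1, the osmotic stress kinase, by -1.26, and YBP1, which binds Yap1, by -0.39 (edgeR adjusted p = 7.3e-08, 6.7e-09 and 9.9e-04). HSF1, the heat shock factor, was at 45.7 ± 0.956 CPM in white and 52.1 ± 0.723 CPM in opaque cells (SD over 3 libraries each). The difference of 0.19 log2 units passed (edgeR adjusted p = 0.019), but not with either other scaling, with counts summed per name, or without opaque library 1 or 2 or white library 1 or 3 (adjusted p = 0.052 to 0.65).

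**Figure D4:**
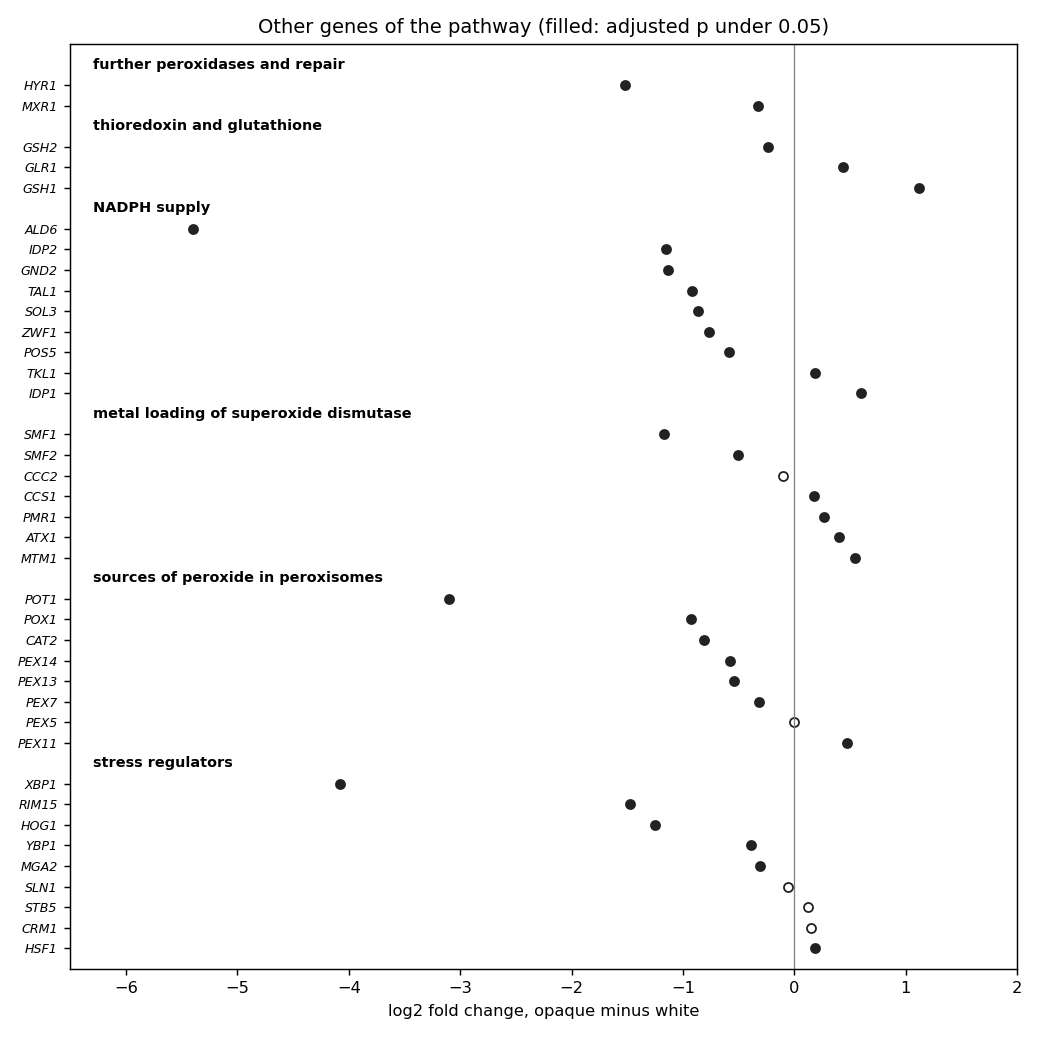
Log2 fold change, opaque minus white, of each tested gene in 6 lists of other genes of the pathway, grouped by list and sorted within it; each point is the region of a name with the most counts, filled where it passed at an adjusted p under 0.05. ALD6 (-5.39), XBP1 (-4.08, but -2.27 with both its regions summed) and POT1 (-3.10) lie farthest toward white cells and GSH1 (1.12) farthest toward opaque cells.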

How the data were processed

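Per the paper's methods, the authors aligned reads of stranded mRNA libraries with STAR to the CLIB830T assembly, assembled and merged transcripts with cufflinks, named them by BLAST against S. cerevisiae proteins and compared cell types with DESeq 2.0. The deposited files give whole-number counts per region, without normalization, the covered fraction of each region as made by the authors, and the percent identity to the S. cerevisiae protein as deposited in the annotation. Covered bases and region lengths are deposited as other columns. Whether counting used the strand is not given in the sources used here. Regions were joined to names by scaffold and coordinates.

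Counts were fitted over 4404 regions with edgeR 4.0.16 in R 4.3.3 (filterByExpr, TMM, robust quasi-likelihood, cell type as the only factor). SE is the log2 fold change divided by the square root of F. The fit was tried on simulated counts with the same dispersion for all regions and few changed regions, evenly up and down. As most regions passed here, that trial says nothing of the scaling or the error rate in these data. The 3 planned ratios with SOD1 or TSA1 could not be computed. DESeq2 1.42.0, other scalings, filters, a block on culture number and leaving out each library were tried. Members, lists and the rule for naming genes (all members, and from each list the 4 genes with the smallest p in its more frequent direction of call and up to 3 in the other) were chosen with earlier results of these data known. The regions beside CTT1 stand outside that rule and were chosen by position. The labels describe triplicate cultures, without saying whether they came from separate colonies. The edgeR p-values thus set a difference against the spread between these cultures, estimated in part from all tested regions together. No library pair agreed within sampling noise.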

Additional observations from a re-analysis of the deposited data

How the results depend on the processing

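Upper-quartile scaling and total counts shifted the median over all tested regions by -0.12 and -0.16 log2 units. Of 528 alternative values for single genes, 498 kept their direction and their side of the threshold, 24 no longer passed, 3 newly passed and 3 changed sign. The 3 that changed sign are PRX1 region 2, at -0.0958 with total counts, -0.0559 with upper-quartile scaling and from -0.0024 to 0.1064 when a library was left out (-0.0024 without opaque library 1). The 3 that newly passed are AHP1 region 1, as given above, and the 24 belong to TKL1, CCS1, ATX1, PMR1 and HSF1. The number of NADPH supply genes higher in opaque cells went from 2 to 1, and that of stress regulators from 1 to 0, with upper-quartile scaling, with total counts and with counts summed per name. The number of metal loading genes higher in opaque cells went from 4 to 1 with total counts. Summing the counts of a name moved XBP1 from -4.08 to -2.27 log2 units. Leaving out each library gave 7 members lower and 1 higher in each case, 1615 to 1653 regions lower and 1499 to 1587 higher among all those tested, and CTT1 values from -3.58 to -3.44. Same-numbered white and opaque libraries did not deviate together (r = -0.04, -0.03 and 0.17), so the numbers are not taken to pair the cultures. With a replicate block CTT1 differed by -3.51 log2 units (edgeR adjusted p = 6.1e-11), and 7 members were lower and 1 higher. The block ended the call of TKL1 (0.19, edgeR adjusted p = 0.062) and no other call of a named gene.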
